A study of Mus musculus with 12 samples.

Results

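Integrin and laminin subunits are the receptor chains and ligand chains of cell adhesion to the basement membrane, and their transcripts were followed in mouse hippocampal cultures that had received a miR-148a-3p mimic. The genes were chosen by name: every mouse gene called Itga, Itgb, Lama, Lamb or Lamc with a number, or Itga with a letter, and no further suffix. Itgam was left out by the choice of genes and Itga2b and Itgb2l by their suffix. Of 48709 genes in the files, 35 carried such a name, 24 integrins and 11 laminins. A gene was tested where at least 6 of the 12 libraries held at least 5 counts, which 32 of the 35 did, among 18847 genes tested in all. The genes Itgb6, Itgad and Itgax fell under this limit, with a mean of 0.833, 2.58 and 3.00 counts per library and 5 counts reached in 0, 2 and 3 libraries. The weakest gene that was tested, Itgb7, averaged 10.9 counts and reached 5 in 11 libraries, and the other 31 reached it in all 12.

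The cultures were primary hippocampal neurons of CD1 mice, dissociated from pooled hippocampi of embryos at embryonic day 17 and plated on poly-D-lysine, a synthetic coating that contains no laminin. At day 10 in vitro (DIV10) all 12 cultures received lipid nanoparticles together with apolipoprotein E4. In 6 of them, called mimic, the particles carried the miR-148a-3p mimic, a synthetic RNA by which more of this microRNA enters the cell. In the other 6, called control, they carried a negative control oligonucleotide. RNA was taken after 48 h, at DIV12. The labels number the samples 1 to 6 in each group and do not say whether the numbers stand for separate preparations, so p-values measure the spread between these samples, which may be technical. Such cultures also hold glial cells, and in RNA from a whole culture fewer cells of a type and less RNA per cell cannot be told apart.

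Integrins are receptors made of an alpha and a beta chain that cross the cell membrane. The pairing sets what is bound: beta1 joins most alpha chains and the pairs bind collagen, laminin or fibronectin, alphav joins several beta chains and binds ligands that carry the RGD motif, and beta2 and beta7 are found on leukocytes. Laminins are trimers of an alpha, a beta and a gamma chain that form the sheet of the basement membrane, which in brain surrounds vessels and lies under the pia, and they also guide neurites. Astrocyte endfeet and neural progenitors hold on to laminin through integrins and through dystroglycan.

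A microRNA recognises a transcript mainly by its seed, bases 2 to 8 counted from the 5′ end, which pairs with a complementary site in the 3′ untranslated region (UTR). The oligonucleotides are shown 5′ to 3′ with these bases in capitals because the sites searched in the integrin and laminin transcripts follow from them, and the mimic equals the RefSeq mature sequence of mouse miR-148a-3p. Both come from the reagent list of the study, and the negative control is assumed to be the listed one.
miR-148a-3p mimic: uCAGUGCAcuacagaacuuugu
negative control: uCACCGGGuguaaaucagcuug
A site was TGCACTG, the match to bases 2 to 8, or GCACTGA, the match to bases 2 to 7 followed by an A, and TGCACTGA where both met. It was searched on the sense strand only, in the longest annotated 3′ UTR of each gene. Of the 32 tested genes, 9 held a site (28.1%), against 21.9% of the 15082 tested genes with an annotated 3′ UTR. The 8-base form stood in 4 of the 32 (12.5%), against 4.15%. Itgb6, which was not tested, held a site as well.

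The sites of the genes that changed are printed here with the bases around them, in the sense of the transcript and with the site in capitals, since they show where the seed could pair. All lie in the 3′ UTR, with coordinates of the printed stretch on GRCm38 (mm10).
Itga5, first site, chr15:103345080-103345100, minus strand: tccccccaTGCACTGtgaagg
Itga5, second site, chr15:103344392-103344413, minus strand: ccaccagcTGCACTGAcgctgc
Itga11, first site, chr9:62783504-62783524, plus strand: ctggtagaTGCACTGtgatag
Itga11, second site, chr9:62783668-62783689, plus strand: tctaggcaTGCACTGAacaaag
Itgb8, chr12:119162833-119162853, minus strand: ctgggaaaGCACTGAttacac
Itgav, chr2:83803604-83803624, plus strand: gacagacaGCACTGAgtcagc
Lamc3, chr2:31945638-31945659, plus strand: gtatgtgaTGCACTGAtgtgtt
The remaining 4 genes with a site, Itga1, Itga4, Itga9 and Itgb3, did not pass the test of change.

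Libraries held 20018234 to 37149112 counts, the lowest in control replicate 1. This library stood apart from the other controls, with a mean distance of 0.4825 (root mean square of log2 CPM) against 0.346 to 0.395. CPM, the scale of all levels, gives the counts of a gene relative to its library's total after scaling between libraries. Markers of neurons summed to 7607 to 8341 CPM in control and 7637 to 7969 in mimic, in overlapping ranges, with 1 of 10 genes higher and 2 lower. Astrocyte markers summed to 5161 to 5683 CPM in control and 6300 to 6725 in mimic with no overlap. Of these, 8 of 10 were higher, while Gfap was lower. Single genes weighed heavily in this sum: Slc1a3 went from a mean of 913 to 1815 CPM and Gfap from 1362 to 731. Markers of the oligodendrocyte lineage went from 429 to 724 CPM in control to 810 to 1003 in mimic (5 of 10 higher, 1 lower). The 724 was control replicate 1 alone, and the next control stood at 459. Most of the sum of this list was Olig1, with means of 370 CPM in control and 720 in mimic. Markers of proliferating cells went from 211 to 274 CPM in control to 475 to 500.2 in mimic (10 of 10 higher). The lists of microglia and leukocytes (23.9 to 27.7 and 22.6 to 37.8 CPM), endothelial cells (59.1 to 79.8 and 38.4 to 62.3), mesenchymal and mural cells (204 to 272 and 104 to 231) and choroid plexus and ependymal cells (300.2 to 508 and 253 to 436.5) overlapped between control and mimic. Mesenchymal and mural markers overlapped only through mimic replicate 4, at 231 CPM, with the other mimic libraries at 104 to 171. In these 4 lists 0, 0, 1 and 1 genes were higher and 2, 2, 2 and 4 lower of 10, 8, 10 and 10 tested. No marker was at 0 in all 12 libraries, but Cldn5, Ly6c1 and Kcnj8 were at 0 in 11, 7 and 6 of them. Most of the endothelial sum was Kdr, with a mean of 58.6 CPM in control and 37.6 in mimic. Integrins and laminins are made by several of these cell types, and the part of these shifts in the values below was not tested.

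Of the 32 tested subunits, 15 changed between mimic and control (46.9%), 8 higher and 7 lower, while 22.2% of all 18847 tested genes changed, 11.5% higher and 10.7% lower. The subunits that rose were Itga2, Itga6, Itgav, Itgb1, Itgb5, Itgb7, Lamc1 and Lamc3, and those that fell included Itga3, Itga5, Itga11, Itgb4, Itgb8 and Lamb1. Integrins gave 6 higher and 5 lower of 21. A change was called at an adjusted p under 0.05 in the quasi-likelihood test of edgeR, adjusted over all genes tested. Since strongly expressed genes pass more easily, the 19 subunits with a mean of at least 100 counts are given separately: 10 of them changed (52.6%), 6 higher and 4 lower, against 28.4% of 12371 genes of that depth, 15.1% higher and 13.3% lower. The 6 control and 6 mimic libraries did not overlap in 9 of the 32 subunits (28.1%), 6 higher and 3 lower, against 13.3% of all genes, 7.43% higher and 5.83% lower.

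Subunits moved in both directions, and the median log2 fold change of mimic over control was 0.07, beside −0.01 over all genes tested. Without regard to sign the median change was 0.21 on the log2 scale, beside 0.12 over all genes. The lowest value was −0.64, in Itga5, and the highest 1.40, in Itga2. Without control replicate 1, 8 subunits were higher and 8 lower, the added one being Itga1. Calls over all genes also rose without that library, to 2697 higher and 2453 lower of 18794, from 2163 and 2019 of 18847.

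**Figure D1:**
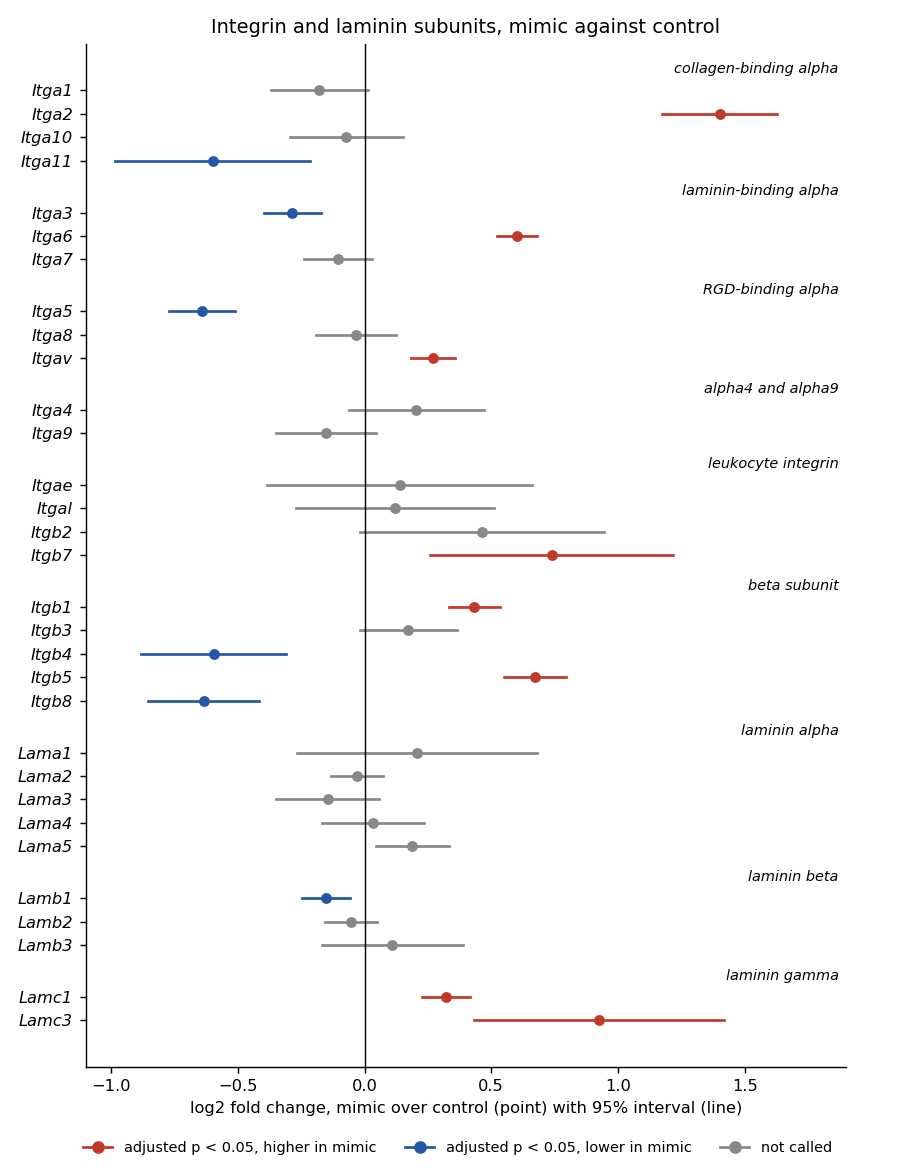
Log2 fold change of mimic over control (horizontal axis) for 31 of the tested subunits, grouped by ligand class, with points for the edgeR estimate, lines for its 95% interval, red for the 8 called higher, blue for 6 called lower and grey for the 17 not called. Integrin alpha and beta chains hold calls in both directions, while none of the 5 laminin alpha chains was called.

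Among the alpha chains that bind collagen with beta1, the group moved in opposite directions: Itga2 rose 2.64-fold, Itga11 fell, and Itga1 and Itga10 did not pass the test. Itga2 encodes the alpha2 chain, a collagen and laminin receptor known from platelets and epithelia. It lies on chr13:114833081-114932100, minus strand. The 6 control libraries held 1.96 CPM at the lowest, 2.19 at the median and 2.35 at the highest, and the 6 mimic libraries 4.88, 5.63 and 7.10. Every mimic library thus stood above every control library, by a gap larger than the whole range of the controls. Its log2 fold change came to 1.40 (SE 0.108, 95% interval 1.17 to 1.63, edgeR adjusted p = 5.24e-08, n = 6 and 6). No seed site was found in its 3′ UTR of 3404 bases.

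Itga11, the alpha11 chain of mesenchymal cells, was weak, with a mean of 32 counts. Its control libraries lay between 0.928 and 1.74 CPM and its mimic libraries between 0.633 and 1.16. In mimic, 5 libraries were below the lowest control, and the highest one overlapped the control range. Its log2 fold change, −0.60 (SE 0.18), passed at an edgeR adjusted p of 0.0242. The call was lost without control replicate 5, mimic replicate 5 or mimic replicate 6, where the edgeR adjusted p was 0.0685, 0.0563 and 0.0598. Of the 10 tested markers of mesenchymal and mural cells, which carry this integrin, Rgs5 was higher, Acta2 and Tagln were lower and the other 7 did not pass the test. For Itga1, the log2 fold change was −0.18 (95% interval −0.37 to 0.01), with an edgeR adjusted p of 0.182 that fell to 0.0286 without control replicate 1. For Itga10 the interval reached from −0.29 to 0.15.

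The 3 alpha chains that bind laminin also split. Itga6 rose 1.52-fold, Itga3 fell, and Itga7 did not pass the test. Itga6 encodes alpha6, which pairs with beta1 or beta4 and is a laminin receptor of neural progenitors and of glia. Its control values ran from 80.9 to 88.7 CPM with a median of 86.3, and its mimic values from 123 to 138 with a median of 132. No mimic library came near the controls, and mimic exceeded control by 0.60 on the log2 scale (SE 0.037, 95% interval 0.52 to 0.68, edgeR adjusted p = 4.23e-09). The gene lies on chr2:71745616-71858416, plus strand, and its longest 3′ UTR holds no seed site, although another annotated 3′ UTR of the gene holds 1.

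Itga3 encodes alpha3, which joins beta1 and has laminins with the alpha5 chain among its main ligands. In control it was measured at 32.5, 36.0 and 41.9 CPM (lowest, median and highest), and in mimic at 28.7, 29.0 and 32.0. All mimic libraries were below all controls, with the highest mimic library at 32.0 just under the lowest control at 32.5. On the log2 scale this was −0.28 (SE 0.054, edgeR adjusted p = 8.28e-04). Itga7, the alpha7 chain known from muscle and Schwann cells, ran from 12.3 to 15.0 CPM in control and from 11.6 to 13.8 in mimic, with a log2 fold change of −0.10 (95% interval −0.24 to 0.03).

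In the chains that recognise the RGD motif, Itga5 fell to 0.641 of its control level, Itgav rose 1.21-fold and Itga8 did not pass the test. Itga5 makes the fibronectin receptor with beta1. The controls stood at 12.4, 12.8 and 15.1 CPM (lowest, median and highest), and the mimic libraries at 7.57, 8.51 and 9.02. All mimic libraries were below all controls, of which replicate 1 was the highest. The change, −0.64 on the log2 scale (SE 0.061, 95% interval −0.77 to −0.51, edgeR adjusted p = 6.53e-07), was −0.60 without that library. Itga5 (chr15:103344286-103366763, minus strand) carries both sites shown above within a 3′ UTR of 983 bases.

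Itgav encodes alphav, the chain shared by the receptors for vitronectin and for latent TGF-beta. Its lowest, median and highest values were 79.5, 83.5 and 91.0 CPM in control and 97.8, 102 and 107 in mimic. All mimic libraries exceeded all controls, by 0.27 on the log2 scale (edgeR adjusted p = 1.05e-04, SE 0.041), in a transcript that holds a site of the 7-base form ending in A. An opposite-strand gene overlaps it but had only 1.75 counts per library. Itga8, a receptor of nephronectin, was at 11.0 to 14.7 CPM in control and 11.5 to 14.6 in mimic (log2 fold change −0.03, 95% interval −0.19 to 0.13), and an opposite-strand gene with 46.3 counts overlaps its exons, beside 399.8 for Itga8.

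Neither Itga4 nor Itga9 passed the test. These related alpha chains join beta1 and bind VCAM1 and tenascin, among others. Itga4 ran from 8.18 to 14.3 CPM in control and from 11.6 to 16.9 in mimic, a log2 fold change of 0.20 (95% interval −0.06 to 0.47) in a gene whose 3′ UTR holds the 8-base site. Cerkl overlaps 1124 bases of its exons on the opposite strand with 61.8 counts, beside 387.5 for Itga4, and without stranded counting the reads of the pair cannot be separated. Itga9 ran from 2.43 to 3.03 CPM in control and from 2.11 to 2.65 in mimic (log2 fold change −0.15, 95% interval −0.35 to 0.04).

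The 4 tested leukocyte chains were weak, with means of 10.9 to 55.0 counts. Itgae and Itgal, which bind E-cadherin and the ICAM proteins, had log2 fold changes of 0.14 and 0.12 with edgeR adjusted p of 0.758 and 0.715. Itgb7, the partner of alphaE and alpha4, rose at a mean of 10.9 counts: the controls held 0.143 to 0.354 CPM, the mimic libraries 0.344 to 0.530, and 5 of the 6 mimic libraries exceeded all controls. The difference, 0.74 on the log2 scale (edgeR adjusted p = 0.0264, SE 0.227), was no longer called without the filter on low counts (edgeR adjusted p = 0.0706), with DESeq2 (adjusted p = 0.0606), or without control replicate 4, control replicate 6, mimic replicate 1 or mimic replicate 2 (edgeR adjusted p from 0.0517 to 0.0797). Itgb2, the shared beta chain of leukocytes and microglia, ranged from 1.06 to 2.08 CPM in control and from 1.55 to 3.75 in mimic, where the highest value came from replicate 2. Its log2 fold change was 0.46 (95% interval −0.02 to 0.94, edgeR adjusted p = 0.171), and 0.22 without mimic replicate 2. With replicate number added as a block, it was called higher (edgeR adjusted p = 0.0386). Summed microglia and leukocyte markers were also highest in mimic replicate 2, at 37.8 CPM against 22.6 to 29.2 in the other mimic libraries.

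Beta chains outside the leukocyte group changed in 4 of 5 cases, beside 22.2% of all genes tested. Itgb1 and Itgb5 rose, and Itgb8 and Itgb4 fell. Itgb1, the common partner of the collagen, laminin and fibronectin receptors, was the most abundant of all subunits per length and rose 1.35-fold. It was measured at 177, 209 and 223 CPM in control (lowest, median and highest) and at 269, 275 and 287 in mimic. Mimic libraries formed a narrow group above all controls, of which replicate 1 was the lowest. On the log2 scale the rise was 0.43 (SE 0.047, 95% interval 0.33 to 0.53, edgeR adjusted p = 2.87e-06), and 0.40 without control replicate 1. The gene lies on chr8:128685654-128733200, plus strand.

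Itgb5 and Itgb8 both encode partners of alphav and moved apart. Itgb5, a vitronectin receptor chain that also takes part in the uptake of cell debris, rose 1.59-fold. Its controls lay at 54.4, 58.0 and 67.7 CPM and its mimic libraries at 81.6, 95.2 and 100.5. No libraries overlapped, and the log2 fold change was 0.67 (SE 0.057, 95% interval 0.55 to 0.79, edgeR adjusted p = 1.92e-07). Itgb8, which with alphav binds latent TGF-beta and is made by astrocytes and neural progenitors, fell to 0.644 of control. Its lowest, median and highest values were 65.8, 90.8 and 100.5 CPM in control and 51.1, 55.1 and 68.6 in mimic. The ranges overlapped through a pair of libraries, the low control replicate 1 and the high mimic replicate 3, and the other 5 mimic libraries were below all controls. Mimic differed from control by −0.63 on the log2 scale (SE 0.10, 95% interval −0.85 to −0.42, edgeR adjusted p = 3.14e-04), −0.70 without control replicate 1 and also −0.70 without mimic replicate 3. Summed astrocyte markers were higher in mimic, with Gfap lower among them, and their relation to the fall of Itgb8 was not tested.

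Itgb4, the beta4 chain of hemidesmosomes that joins alpha6 only, fell at a mean of 87.6 counts, from 3.14 to 4.31 CPM in control to 1.55 to 2.98 in mimic with no overlap. This gave −0.60 on the log2 scale (edgeR adjusted p = 0.00364, SE 0.135), opposite in sign to that of its partner Itga6. Itgb3, the beta3 chain of platelets and of the vitronectin receptor, ran from 2.60 to 3.59 CPM in control and from 3.23 to 3.75 in mimic and did not pass the test (log2 fold change 0.17, 95% interval −0.02 to 0.37). Its transcript holds a seed site.

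**Figure D2:**
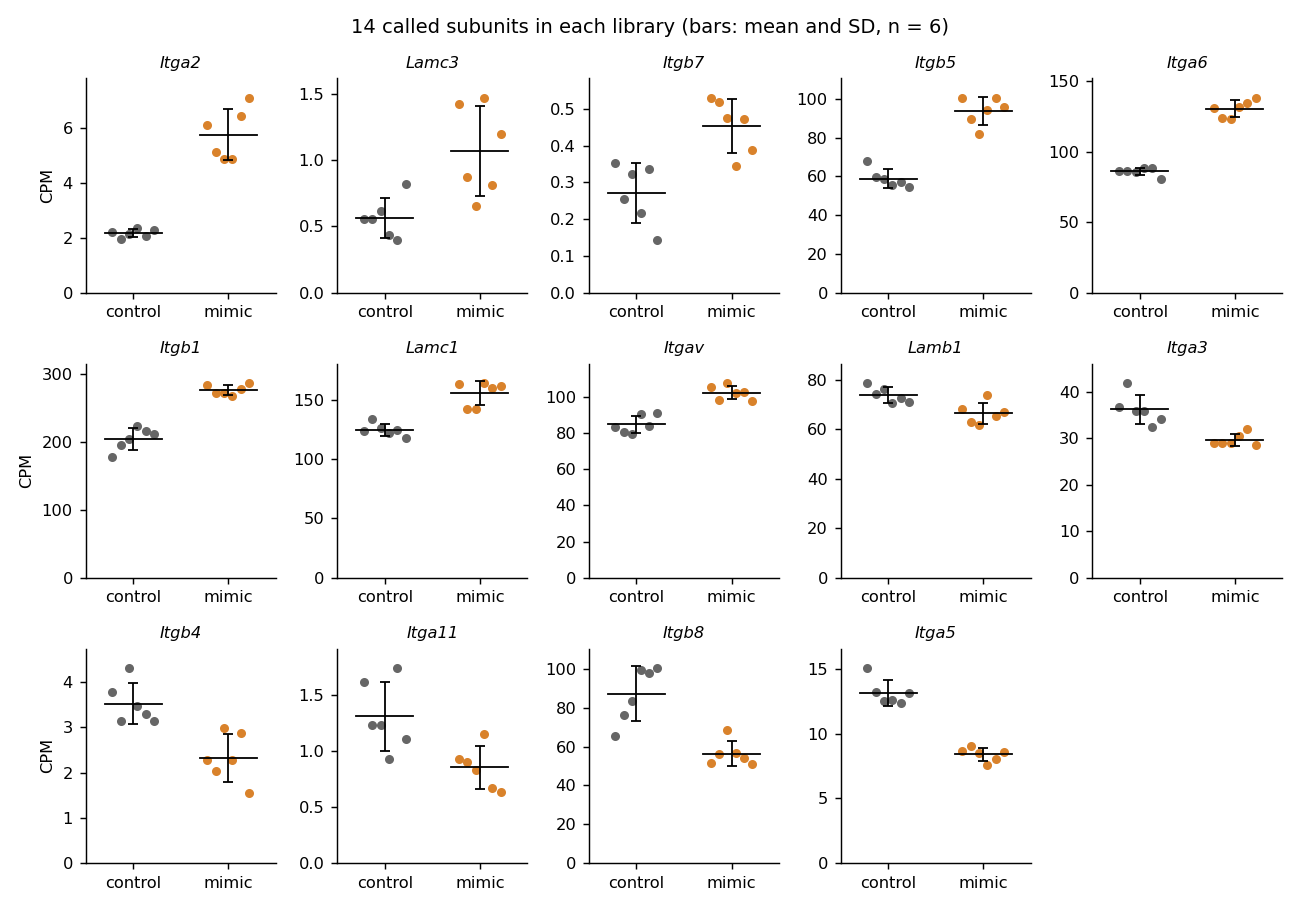
CPM (vertical axes, from 0, a separate scale for each gene) of 14 called subunits in the 6 control and 6 mimic libraries, with points for libraries and bars for mean and SD, ordered from the highest log2 fold change (Itga2) to the lowest (Itga5). Control and mimic points separate fully in 9 genes, and in Itgb8 the ranges touch only through the lowest control and the highest mimic library.

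Among the laminins, none of the 5 alpha chains, which carry the binding sites for integrins and dystroglycan, passed the test, and 1 had an unadjusted p under 0.05. This was Lama5, at 51.0 to 62.2 CPM in control and 55.8 to 74.0 in mimic, with a log2 fold change of 0.19 (95% interval 0.04 to 0.33, edgeR adjusted p = 0.0593). It passed with DESeq2 (adjusted p = 0.0438) and without control replicate 2, mimic replicate 2 or mimic replicate 3 (edgeR adjusted p = 0.0215, 0.0356 and 0.0382). Lama2, the chain of muscle and brain vessel laminin, gave the narrowest interval of the 5, −0.13 to 0.07. Lama1, of the pial and embryonic basement membrane, varied most: 8.04 to 12.6 CPM in control and 6.52 to 17.1 in mimic, so that its interval ran from −0.27 to 0.68. Lama3 and Lama4, of epithelial and vascular laminins, had intervals of −0.35 to 0.06 and −0.17 to 0.24.

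Of the beta chains, Lamb1 fell slightly. The controls held 70.7, 73.4 and 78.8 CPM and the mimic libraries 61.7, 66.1 and 73.8 (lowest, median and highest), with 5 mimic libraries below all controls and mimic replicate 4 within their range. The difference, −0.15 on the log2 scale (edgeR adjusted p = 0.0193, SE 0.045), was lost as a call without mimic replicate 2 or mimic replicate 3 (edgeR adjusted p = 0.0556 and 0.0549). Lamb2, the beta2 chain of synaptic and vascular laminins, gave −0.05 (95% interval −0.16 to 0.05), and Lamb3, of epithelial laminin, 0.11 (−0.17 to 0.39).

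The gamma chains Lamc1 and Lamc3 rose. Lamc1, the gamma1 chain of most laminins, was at 118, 124 and 134 CPM in control and at 142, 161 and 164 in mimic. All mimic libraries were above all controls, with a log2 fold change of 0.32 (SE 0.045, 95% interval 0.23 to 0.42, edgeR adjusted p = 4.56e-05). It lies on chr1:153218922-153332786, minus strand. Lamc3, whose gene product occurs in cortex and retina, rose from 0.398 to 0.823 CPM to 0.655 to 1.47, with 4 mimic libraries above all controls (log2 fold change 0.92, SE 0.23, edgeR adjusted p = 0.00755). It rests on a mean of 24.5 counts.

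Levels were compared between genes only per length, as CPM per kilobase of annotated exon. In control, Itga6 was the highest alpha chain at 9.54, followed by Itgav at 7.89, Itga3 at 6.34 and Itga5 at 2.66 CPM per kilobase, and these neighbours did not overlap over the 6 libraries. Below them came Itga8 and Itga7, which overlapped each other, then Itga4. Next came Itga1, Itga10, Itga9, Itga2 and Itga11, each overlapping the next, and the leukocyte chains were lowest. Itgb1, at 50.2, stood above Itgb5 (16.6) and Itgb8 (7.90) with no overlap between neighbours, and Itgb3, Itgb4 and Itgb2 followed in overlapping ranges. Among laminins the highest chain of each kind was Lama5 (4.80), Lamb2 (13.8) and Lamc1 (15.1), none overlapping the next chain of its kind.

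The mix of chains per length shifted with the mimic. Itga6 made up 29.1% ± 0.951 of the summed alpha chains in control and 38.6% ± 1.30 in mimic (SD, n = 6), whereas Itga3 went from 19.4% ± 1.54 to 13.9% ± 0.491 and Itga5 from 8.13% ± 0.618 to 4.54% ± 0.327. Itgav, between them, took 24.1% in control and 25.4% in mimic. Of the beta chains, Itgb8 went from 10.3% ± 1.22 to 5.05% ± 0.695, while Itgb1 took 65.7% and 67.1%. The gamma chains were nearly all Lamc1, 97.2% and 97.9%. The summed alpha chains held 32.7 ± 0.525 CPM per kilobase in control and 37.5 ± 0.647 in mimic, and the summed beta chains 76.4 ± 4.03 and 101 ± 2.65, with no overlap in either sum.

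Ratios within a library describe the same shift in pairs that were picked after their values were seen, so no test is given. The ratio of Itga6 to Itga3 per length was 1.30 to 1.72 in control and 2.67 to 3.05 in mimic. For the alphav partners Itgb5 and Itgb8 it was 1.68 to 3.21 and 3.70 to 6.05, and for Itgav and Itga5 2.54 to 3.30 and 5.00 to 6.20. Itga2 stood below Itga1 in all controls (ratio 0.609 to 0.918) and above it in all mimic libraries (1.70 to 2.93). Lamc1 over Lamb1, which occur together in laminins, went from 1.88 to 2.16 in control to 2.67 to 2.94 in mimic.

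**Figure D3:**
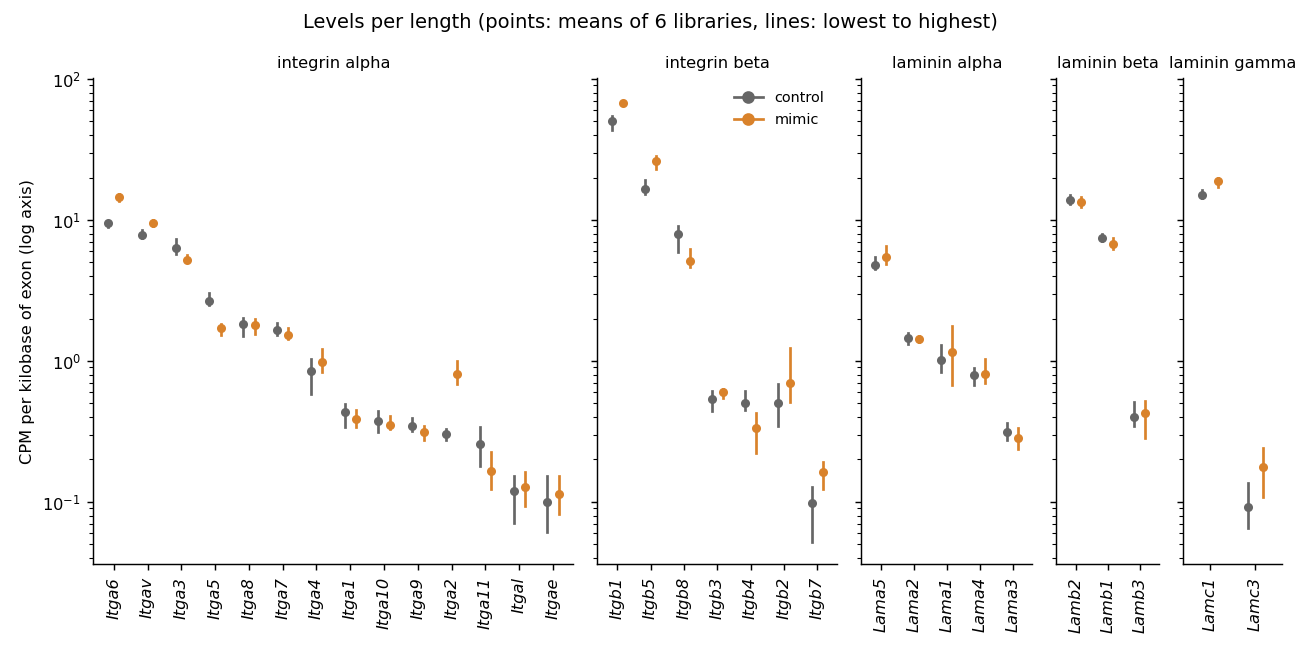
CPM per kilobase of exon (vertical, log axis) of 31 of the tested subunits in control (grey) and mimic (orange), with points for the mean of 6 libraries and lines from the lowest to the highest, ordered by the control mean within each kind of chain. Itgb1 is the highest at 50.2 in control and 67.9 in mimic, and Itga2 moves from 0.304 to 0.808.

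Seed sites stood in genes of both directions. Of the 9 tested subunits with a site, 3 fell (Itga5, Itga11 and Itgb8), 2 rose (Itgav and Lamc3) and 4 did not pass the test. Of the 23 without one, 4 fell, 6 rose and 13 did not pass. The median log2 fold change was −0.15 with a site and 0.11 without, beside −0.04 and 0.00 over all tested genes with a 3′ UTR. As a share, 33.3% of the subunits with a site fell and 17.4% of those without, beside 19.2% and 10.8% over all genes. The 3 subunits with more than 1 site, Itga5, Itga11 and Itga9, lay between −0.64 and −0.15, below the median of −0.05 over the 730 genes of that kind. The 6 subunits with a single site had a median of 0.19.

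The 8-base site was in Itga5 and Itga11, which fell, in Lamc3, which rose, and in Itga4, which did not pass. Integrins held 8 of the 9 genes with a site, out of 21, and laminins 1 out of 11. Subunits with a site had longer 3′ UTRs, with a median of 3581 bases against 446, as did all genes (2307 against 933). The median 3′ UTR of laminin genes without a site was 204 bases. With all annotated 3′ UTRs searched, 10 subunits held a site, the added one being Itga6. The predicted targets of miR-148a-3p that the study lists include Itga1, Itga5, Itga9, Itga11 and Itgb8.

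**Figure D4:**
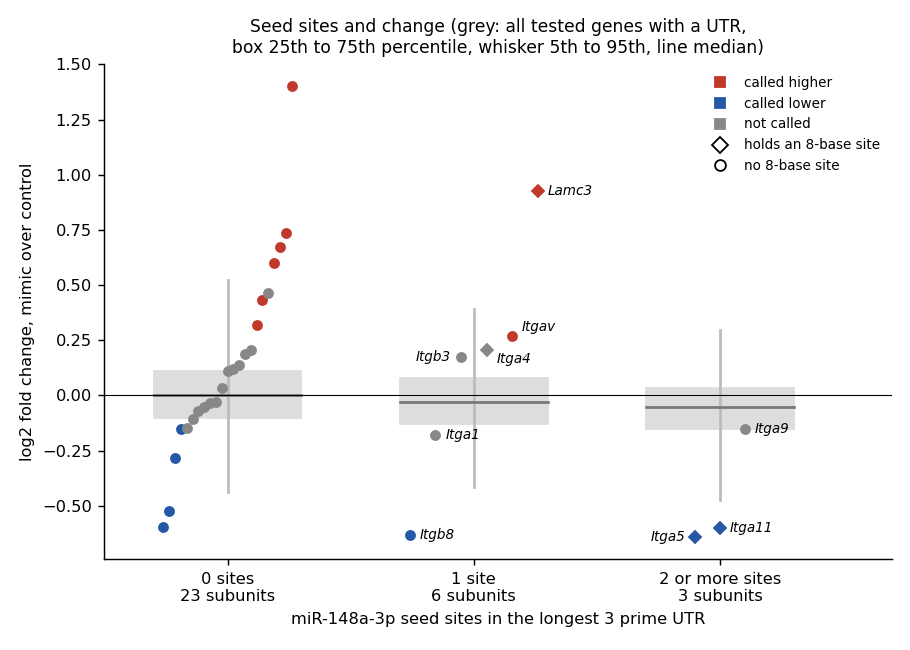
Log2 fold change of mimic over control (vertical axis) of the 32 tested subunits by the number of miR-148a-3p seed sites in the longest 3′ UTR (horizontal axis), with diamonds for genes that hold an 8-base site. Grey boxes, lines and whiskers give the quartiles, median and 5th to 95th percentiles of all 15082 tested genes with a 3′ UTR. Itga5, Itga11 and Itga9, with more than 1 site, are all below 0, while genes with a single site lie between −0.63 (Itgb8) and 0.92 (Lamc3).

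The genes around the subunits were described by lists of known roles, and no set test was made. Of 38 genes of focal adhesions and integrin adaptors, which tie integrins to actin, 8 rose and 10 fell (47.4%), with a median log2 fold change of 0.02. Tns3, a tensin that binds the tails of beta chains, rose from 54.7 ± 2.89 to 136 ± 5.32 CPM (SD, n = 6; log2 fold change 1.31, SE 0.041, edgeR adjusted p = 3.83e-12). Lpp and Lims1, a zyxin relative and a partner of integrin-linked kinase, rose by 0.46 and 0.36 on the log2 scale. The filamin Flna and the caveolin Cav1 had log2 fold changes of −0.33 and −0.41. The counts of this list depended on single libraries. Without control replicate 1, 14 genes were higher. Calls in the lower direction were 4 to 6 without control replicate 2 or without mimic replicate 1, 2, 3, 4 or 6. Over all genes these fits gave 2697 higher and 1612 to 1770 lower, respectively, against 2163 and 2019 with all libraries.

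Of 19 basement membrane components other than laminins, 4 rose and 7 fell (57.9%), with a median of −0.14. Frem2 and Fras1, which form a complex at the epithelial basement membrane, rose from 27.2 to 53.1 and from 56.0 to 74.6 CPM, and Smoc1 had a log2 fold change of 0.61. The collagens Col18a1 and Col4a6 and the collagen-binding Sparc fell, with log2 fold changes of −0.58, −0.42 and −0.33. In the dystroglycan complex and its glycosylation, the other laminin receptor, 2 of 18 genes rose and 4 fell (33.3%), with a median of 0.04. Utrn and Dmd, the proteins that join dystroglycan to actin, rose by 0.33 and 0.25 on the log2 scale. The sarcoglycans Sgcb and Sgce had −0.46 and −0.23.

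Other integrin ligands gave 5 higher and 10 lower of 28 tested (53.6%), with a median of −0.09. Mfge8, a ligand of alphav with beta3 or beta5 that bridges to dying cells, rose from 400 ± 64.4 to 810 ± 62.6 CPM (log2 fold change 1.02, edgeR adjusted p = 4.31e-07). Emilin1 and Ltbp3, which bind alpha4 or alpha9 integrins and latent TGF-beta respectively, had log2 fold changes of 0.82 and 0.36. Thbs1 and Ccn1, matricellular ligands of several integrins, fell from 141 ± 25.6 to 72.1 ± 16.6 CPM and from 44.6 ± 5.43 to 23.3 ± 4.23. Tgfb3, whose latent form carries an RGD motif, had a log2 fold change of −0.66. Beside these shares stand the 22.2% of all genes and the 28.4% of genes with a mean of at least 100 counts.

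**Figure D5:**
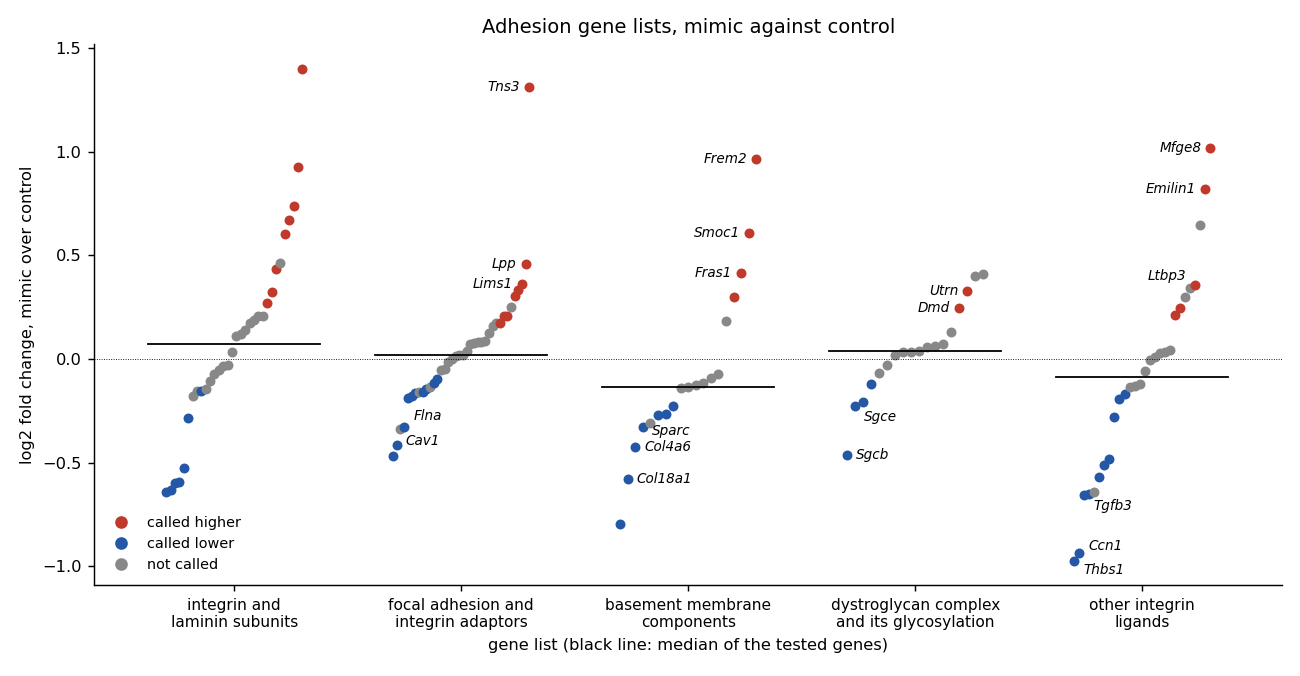
Log2 fold change of mimic over control (vertical axis) of each tested gene in the subunit list and in 4 lists of adhesion genes (horizontal axis), with red for called higher, blue for called lower, grey for not called and a black line for the median. All 5 lists hold genes in both directions, with Tns3 at 1.31 and Mfge8 at 1.02 among the highest and Thbs1 at −0.97 the lowest.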

How the data were processed

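Per the labels, poly(A) RNA was turned into TruSeq libraries and read from a single end, 50 bp long. The authors aligned these to mm10 with STAR 2.5.2b and counted them per gene with featureCounts (Subread 1.5.1), and these deposited raw counts were used, for 48709 genes in each of 12 samples. Strand setting, annotation release and treatment of multi-mapping reads are not given in the sources used here. A deposited table of normalized values was not used.

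Gene symbols, exon lengths and 3′ UTRs came from GENCODE on GRCm38, and 48349 genes were named. Genes reaching 5 counts in 6 or more of the 12 samples were tested by edgeR 4.0.16 (R 4.3.3) with TMM scaling and the robust quasi-likelihood F-test, without covariates, with Benjamini-Hochberg adjustment over all 18847 genes. SE is the size of the log2 fold change over the square root of F. CPM uses TMM-scaled totals, and CPM per kilobase divides by the union of annotated exons. Members, lists and tests were chosen with earlier results of these data known. Full values are given for subunits with an adjusted p under 0.05 and a mean of at least 100 counts, ranges for the others, and of each adhesion list at most 3 genes per direction by the same limits with the largest change. Alternatives were DESeq2 1.42.0 (the test of the study), RLE scaling, no count filter, at least 20 counts, a replicate block and each library left out. The fit was tested on simulated data. Replicates differed beyond sampling noise in every pair (chi-square per degree of freedom 1.78 to 42.7). Of the genes under these rules, 3 are not reported here.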

Additional observations from a re-analysis of the deposited data

Results flagged for a closer look

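In 32 subunits and 2 groups, 64 sets of 6 libraries were searched for a library far from the rest, by Dixon's 95% limit on the gap to the nearest library, which chance gives in about 1 of 20 sets (3.2 of 64), and 4 were found. Itga6 was at 80.95 CPM in control replicate 6, below the next library at 85.84 and the highest at 88.73. Itgb2 was at 3.749 CPM in mimic replicate 2, above the next at 2.291. Itgb8 was at 68.62 CPM in mimic replicate 3, above the next at 56.49. Itga5 was at 15.05 CPM in control replicate 1, above the next at 13.17. The 4 values come from 4 different libraries.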

How the results depend on the processing

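Under 17 alternatives, the counts of subunits called ranged from 7 to 9 higher and 6 to 8 lower. Of the 15 called subunits, 12 passed under all 17, and Itga11, Lamb1 and Itgb7 lost the call under some, while Lama5, Itgb2 and Itga1 gained it under some. No called subunit turned its sign. Log2 fold changes near 0 did in 4 cases: Itga8 was 0.004 without mimic replicate 5, and Lama4 was −0.0056 without control replicate 3, −0.0094 without control replicate 6 and −0.0454 without mimic replicate 4. With 1 library left out, Itga8 ran from −0.0794 to 0.004 and Lama4 from −0.0454 to 0.0741. Leaving out 1 library gave 1880 to 2697 higher and 1612 to 2453 lower genes over the whole table. In focal adhesion genes it gave 6 to 14 higher and 4 to 10 lower, and the cause was not tested. The replicate block left 1950 genes higher and 1709 lower, with 9 and 7 subunits and 8 and 5 focal adhesion genes. Itgb2 was called under it (edgeR adjusted p = 0.0386). Samples with the same number did not deviate together (correlations −0.038 to 0.093), and no replicate correlated best with its own number. These correlations cannot show whether the numbers stand for a pairing by design. The 3 untested subunits had too few counts to be described. Sites were searched by letters only, and strand was not known.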
